A study of Homo sapiens with 18 samples.

Results

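The genes described here are 9 coregulators of nuclear receptors, the proteins that ligand-bound receptors recruit to switch transcription up or down: NCOA1, NCOA2, NCOA3, NCOR1, NRIP1, PPARGC1A, CREBBP, EP300 and MED1. They were chosen by name, with earlier results of these data known, and the rule itself uses no measured value. Of the 9, 7 had a probe set annotated to them alone, out of 18417 genes with such a probe set, and each of the 7 had 1 probe set (8040552 for NCOA1, 8151254 for NCOA2, 8069553 for NRIP1, 8099633 for PPARGC1A, 7999044 for CREBBP, 8073345 for EP300 and 8014841 for MED1). NCOA3 and NCOR1 had none and are not analysed here. The RNA came from H295R, an established human adrenocortical carcinoma line that makes steroid hormones. Per the labels, cells stably carried the pcDNA4 vector, not inducible, either with the cDNA of GRα, the hormone-binding isoform of the glucocorticoid receptor (GRα cells), or empty (control cells). Cells of both kinds, at 70% confluence and after 24 h without serum, were exposed for 6 h to 100 nM of the agonist dexamethasone, to 100 nM of RU486 (mifepristone, an antagonist with partial agonist activity) or to the ethanol vehicle alone. The 6 groups are GRα dexamethasone (3 arrays), GRα RU486 (2 arrays, 1 more having failed quality control per the labels), GRα vehicle (3), control dexamethasone (3), control RU486 (3) and control vehicle (3). The labels do not say whether either line is 1 clone, so GRα over-expression and any other difference between the lines cannot be told apart.

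Nuclear receptors such as the glucocorticoid receptor change shape when they bind a hormone, and the new surface takes up coactivators that carry LXXLL motifs, while antagonists favour the binding of corepressors. NCOA1 and NCOA2 are scaffold coactivators of the steroid receptor coactivator family. They bring in CREBBP and EP300, 2 related histone acetyltransferases, and MED1 is the Mediator subunit that links receptors to RNA polymerase II. PPARGC1A encodes PGC-1α, an inducible coactivator of mitochondrial and gluconeogenic genes, and NRIP1 encodes RIP140, which binds agonist-bound receptors and recruits histone deacetylases and CtBP proteins to repress them. In the adrenal cortex the orphan receptor NR5A1, which drives steroidogenic enzyme genes, uses coactivators of the same families.

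PPARGC1A and NRIP1 were the genes called between treatments, so the promoter windows of both are shown first. Sequences are from RefSeq on GRCh38.p14, from 250 bases before to 50 bases after an annotated start, on the strand of the gene, and capitals mark the letters TGACG, the core of the cAMP response element. RefSeq gave PPARGC1A 2 such windows and NRIP1 3, on the minus strands of chromosomes 4 and 21. The first PPARGC1A window is chr4:24472856-24473155, the second is chr4:23881052-23881351, and the NRIP1 window shown is chr21:15064541-15064840, the 1 of its 3 that held a match.
PPARGC1A window 1: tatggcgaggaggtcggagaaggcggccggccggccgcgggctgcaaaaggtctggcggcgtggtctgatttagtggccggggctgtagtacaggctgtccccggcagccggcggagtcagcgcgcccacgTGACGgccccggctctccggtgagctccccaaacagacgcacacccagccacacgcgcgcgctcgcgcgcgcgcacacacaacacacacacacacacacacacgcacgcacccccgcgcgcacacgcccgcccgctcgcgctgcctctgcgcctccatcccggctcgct
PPARGC1A window 2: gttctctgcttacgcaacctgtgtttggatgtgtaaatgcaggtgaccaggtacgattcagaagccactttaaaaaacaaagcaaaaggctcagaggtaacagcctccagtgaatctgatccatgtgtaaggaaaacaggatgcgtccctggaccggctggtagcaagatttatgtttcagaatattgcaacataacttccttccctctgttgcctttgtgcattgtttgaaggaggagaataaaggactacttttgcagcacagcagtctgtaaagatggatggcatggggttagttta
NRIP1 window 3: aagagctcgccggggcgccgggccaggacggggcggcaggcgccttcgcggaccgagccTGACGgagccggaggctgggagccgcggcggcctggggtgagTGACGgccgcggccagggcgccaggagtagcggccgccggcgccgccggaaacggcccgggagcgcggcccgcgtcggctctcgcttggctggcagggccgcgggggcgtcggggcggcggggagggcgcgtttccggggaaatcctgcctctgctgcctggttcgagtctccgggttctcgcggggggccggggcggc
The first PPARGC1A window held 1 TGACG, at bases 132 to 136 of the window, the second held none, and the NRIP1 window held 2, at bases 60 to 64 and 102 to 106. TGACG was in 24.6% of 35116 promoter windows of the same length. The other motifs, also searched on both strands, were a full glucocorticoid response element, AGAACA and TGTTCT with 3 bases between them (in 0.00285% of windows), AGAACA alone, which is part of it (14.8%), TGACGTCA, which contains TGACG (1.85%), and the negative glucocorticoid element, CTCC and GGAGA with 0, 1 or 2 bases between them (0.231%, 0.72% and 0.772%). None of them was in any of the 5 windows of PPARGC1A and NRIP1, which says only that these letters are not in these windows. NCOA1 had AGAACA in 1 of its 3 windows and CREBBP in 1 of its 2. CREBBP also held TGACG, at bases 154 to 158 and 170 to 174 of its other window, so TGACG was not particular to PPARGC1A and NRIP1.

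All values are log2 array signals after RMA normalization. NR3C1, the receptor gene itself, averaged 7.94 ± 0.04 in GRα vehicle cells and 7.36 ± 0.07 in control vehicle cells (SD, n = 3 each), a difference of 0.59 ± 0.07 (SE, limma adjusted p = 1.37e-06) in the direction the labels give. Whether its probe set reads the introduced cDNA, the cells' own RNA or both was not tested. The adrenocortical markers STAR, CYP11A1, CYP17A1 and NR5A1 averaged 9.93, 10.18, 9.62 and 8.68 over all arrays, against a median of 6.85 over all genes. Their lowest array in either line read 9.28, 9.96, 9.37 and 8.16. Of 12 measured adrenocortical markers 7 were above that median, while HSD3B2 (6.37), INHA (6.58), CYP11B1 (6.13), MC2R (5.46) and CYP11B2 (5.34) were below it. The summed log2 value of the 12 ran from 92.2 to 94.3 in GRα arrays and from 97.5 to 99.2 in control arrays. Of the endothelial, leukocyte and chromaffin markers 0 of 5 each were above the median of all genes, and of the fibroblast and epithelial markers 2 of 6 and 1 of 5. The summed epithelial markers also separated the lines, from 30.44 to 31.46 in GRα arrays and from 29.52 to 30.41 in control arrays without overlap, and the sums of the endothelial, leukocyte, chromaffin and fibroblast markers overlapped. The part of these differences in the results below was not tested. GRα vehicle replicate B stood apart from the other arrays, with the lowest weight of the 17 when limma estimated array quality (0.194, against 0.654 to 2.30 for the others), and results that rest on it are given with and without it.

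The coregulators fell into 3 kinds of pattern. NCOA1, NCOA2, NRIP1 and PPARGC1A were lower in GRα cells than in control cells under every treatment, by 1.25-fold to 1.54-fold. PPARGC1A was also lower under dexamethasone than under RU486 in both lines, and NRIP1 was higher under dexamethasone than under vehicle in GRα cells. CREBBP, EP300 and MED1 gave no call in any comparison in the unweighted limma fit of all arrays. The plot of coregulator levels by array shows each of these patterns.

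**Figure D1:**
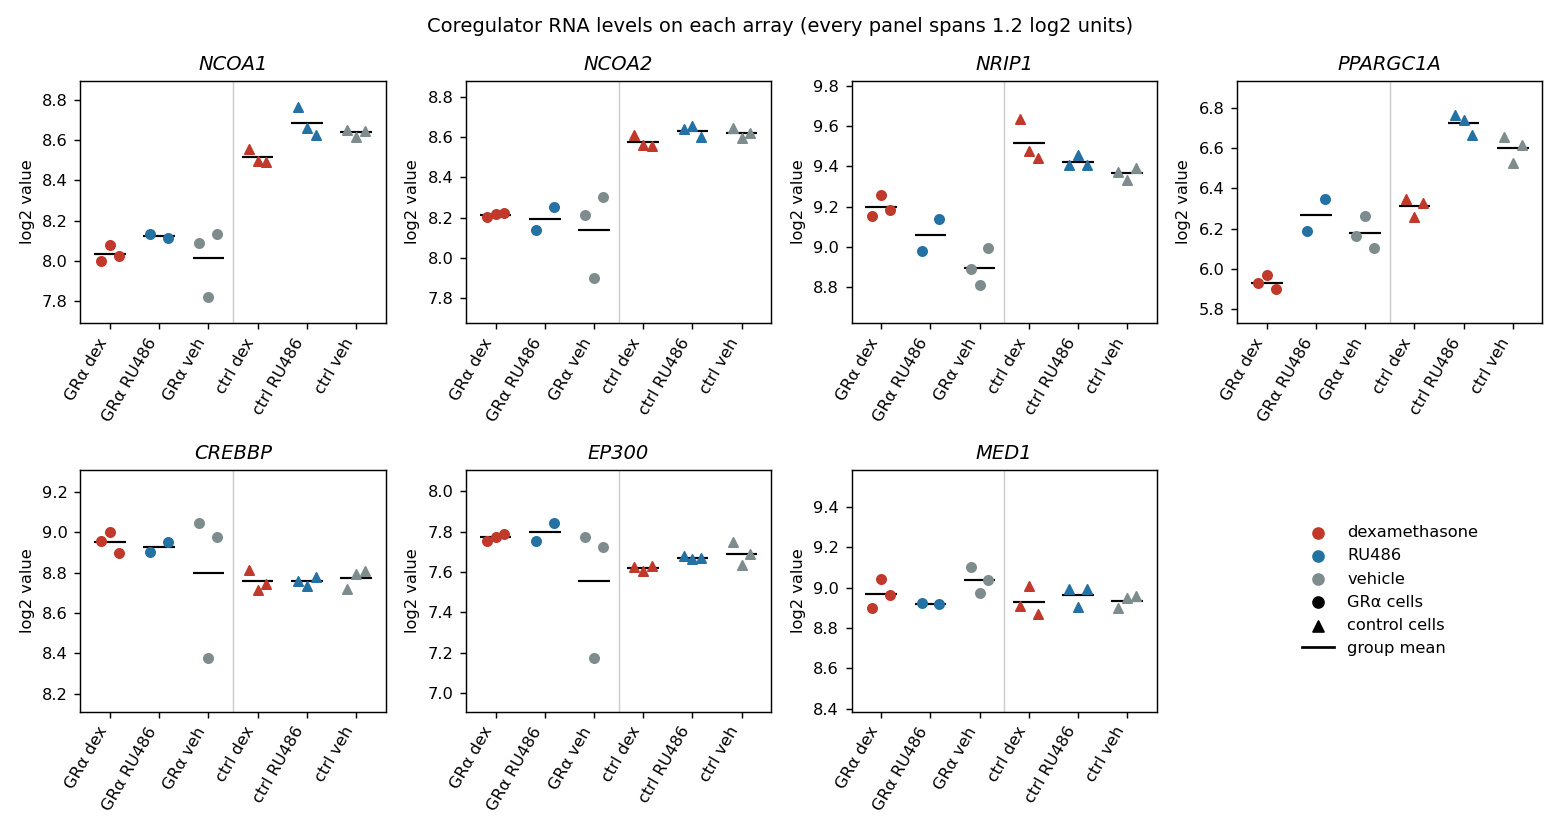
Log2 signal of the 7 measured coregulators on each array, by group, with dexamethasone, RU486 and vehicle from left to right within GRα cells (circles) and then control cells (triangles), and a bar at each group mean. NCOA1, NCOA2 and NRIP1 separate the lines on all 17 arrays, PPARGC1A is lowest under dexamethasone in each line, and 1 GRα vehicle array lies far below the others for CREBBP (8.37) and EP300 (7.17).

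NCOA1, also called SRC-1, showed the widest gap between the lines among the 7 genes in vehicle. Its log2 values were 8.09, 7.82 and 8.13 in GRα vehicle cells, against 8.65, 8.62 and 8.65 in control vehicle cells. Under dexamethasone they were 8.0, 8.08 and 8.03 in GRα cells, against 8.55, 8.50 and 8.49 in control cells. Under RU486 they were 8.13 and 8.11 in GRα cells, against 8.76, 8.66 and 8.62 in control cells. Every GRα array lay below every control array, whatever the treatment, with 7.82 to 8.13 on 8 GRα arrays and 8.49 to 8.76 on 9 control arrays. The difference was -0.62 ± 0.07 in vehicle (SE, limma adjusted p = 2.4e-06), a 1.54-fold lower signal in GRα cells. Under dexamethasone it was -0.48 ± 0.07 (limma adjusted p = 4.7e-05) and under RU486 -0.56 ± 0.08 (limma adjusted p = 3.41e-05).

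NCOA2, known as GRIP1 or SRC-2 and described as a coactivator or corepressor of the glucocorticoid receptor depending on the target gene, separated the lines in the same direction. GRα cells had 8.20, 8.22 and 8.22 under dexamethasone, 8.14 and 8.25 under RU486 and 8.21, 7.90 and 8.30 in vehicle. Control cells had 8.61, 8.56 and 8.56 under dexamethasone, 8.64, 8.65 and 8.60 under RU486 and 8.65, 8.59 and 8.62 in vehicle. The highest GRα array, at 8.30, was below the lowest control array, at 8.56. The difference between GRα and control cells was -0.48 ± 0.08 in vehicle, -0.36 ± 0.08 under dexamethasone and -0.44 ± 0.09 under RU486 (SE, limma adjusted p = 0.00012, 0.00158 and 0.000998). GRα vehicle replicate B held the lowest value of each of these coactivators, and without it the vehicle differences were -0.53 ± 0.06 for NCOA1 and -0.36 ± 0.05 for NCOA2, both still called.

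Counted together, 4 of the 7 genes were called lower and 0 higher in GRα cells in each of the 3 treatments. Over all 18417 genes, 33.4% were called in vehicle, 33.3% under dexamethasone and 29.2% under RU486, with 18.3%, 17.6% and 16.2% lower and 15.0%, 15.7% and 13.1% higher. Arrays of the 2 lines did not overlap for 6 of the 7 genes under dexamethasone, 6 under RU486 and 5 in vehicle, where the same held for 45.6%, 54.8% and 40.5% of all genes. The median difference of the 7 genes was -0.42 in vehicle, -0.32 under dexamethasone and -0.36 under RU486, where that of all genes was 0.01, -0.02 and -0.01. These 12 calls held in each of 10 other ways of processing the values and without each of the 17 arrays in turn. The lines thus differed in a large share of all genes, and the members' share of calls is to be read against that background.

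**Figure D2:**
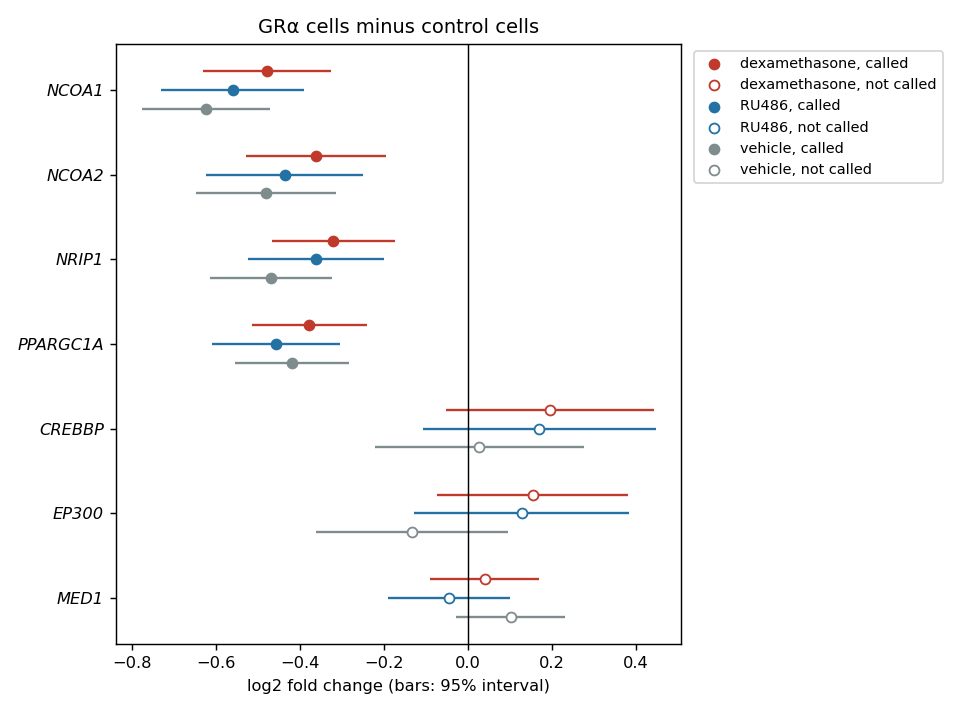
Log2 fold change of each coregulator in GRα cells relative to control cells under dexamethasone, RU486 and vehicle, with 95% intervals from the limma fit; filled points were called at an adjusted p under 0.05. NCOA1, NCOA2, NRIP1 and PPARGC1A lie between -0.62 and -0.32 with no interval reaching 0, and the intervals of CREBBP, EP300 and MED1 span 0.

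The acetyltransferase genes CREBBP and EP300 gave different calls with and without a single array, GRα vehicle replicate B. CREBBP read 8.96, 9.0 and 8.90 in GRα dexamethasone cells, 8.90 and 8.95 in GRα RU486 cells and 9.05, 8.37 and 8.98 in GRα vehicle cells, the 8.37 being replicate B. Control arrays held 8.81, 8.71 and 8.75 under dexamethasone, 8.76, 8.73 and 8.78 under RU486 and 8.72, 8.79 and 8.81 in vehicle. Apart from that 1 array, each GRα value of CREBBP was above each control value. With it and without array weights, CREBBP gave no call: 0.20 ± 0.12 under dexamethasone, 0.17 ± 0.13 under RU486 and 0.03 ± 0.12 in vehicle (SE, limma adjusted p = 0.233, 0.394 and 0.89). Without it, CREBBP was higher in GRα cells in all 3 treatments, by 0.20 ± 0.05 under dexamethasone, 0.17 ± 0.06 under RU486 and 0.24 ± 0.06 in vehicle (limma adjusted p = 0.00614, 0.0308 and 0.00366). In that fit 37.3%, 33.4% and 34.2% of all genes were called in either direction. With all arrays in the fit but weighted by quality, CREBBP was also called under dexamethasone (limma adjusted p = 0.0222). It was called as well when only the 2 dexamethasone groups were fitted (limma adjusted p = 0.0407). That smaller fit leaves out GRα vehicle replicate B.

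EP300, the paralogue of CREBBP, had 7.76, 7.77 and 7.79 in GRα dexamethasone cells, 7.75 and 7.84 in GRα RU486 cells and 7.78, 7.17 and 7.72 in GRα vehicle cells. In control cells it had 7.63, 7.60 and 7.63 under dexamethasone, 7.68, 7.67 and 7.67 under RU486 and 7.75, 7.63 and 7.69 in vehicle. Replicate B was again the low array. The difference between GRα and control cells was 0.15 ± 0.11 under dexamethasone, 0.13 ± 0.12 under RU486 and -0.13 ± 0.11 in vehicle (SE, limma adjusted p = 0.316, 0.503 and 0.38). Without that array EP300 was called higher in GRα cells under dexamethasone (0.15 ± 0.05, limma adjusted p = 0.0183). Its vehicle difference then had the other sign and no call, at 0.06 ± 0.05 (adjusted p = 0.44).

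Set against the mean of replicates A and C, GRα vehicle replicate B was lower by 0.64 for CREBBP and 0.58 for EP300. Over all genes this difference had a median of -0.01, and its 1st and 99th percentiles were -0.556 and 0.581, which places both acetyltransferase genes in the lowest 1%. The other members moved less on that array, by -0.35 for NCOA2, -0.29 for NCOA1, -0.13 for NRIP1, -0.10 for MED1 and 0.13 for PPARGC1A. Across the 17 arrays, with the mean of each line removed, CREBBP and EP300 had a Pearson r of 0.91, and without this array, over 16, r was -0.11. For NCOA1 and PPARGC1A, the member pair with the highest r without it, r was 0.47 with it and 0.87 without it. Among the other member pairs r rose for some and fell for others. These coefficients describe arrays that share lines and treatments and carry no test.

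**Figure D3:**
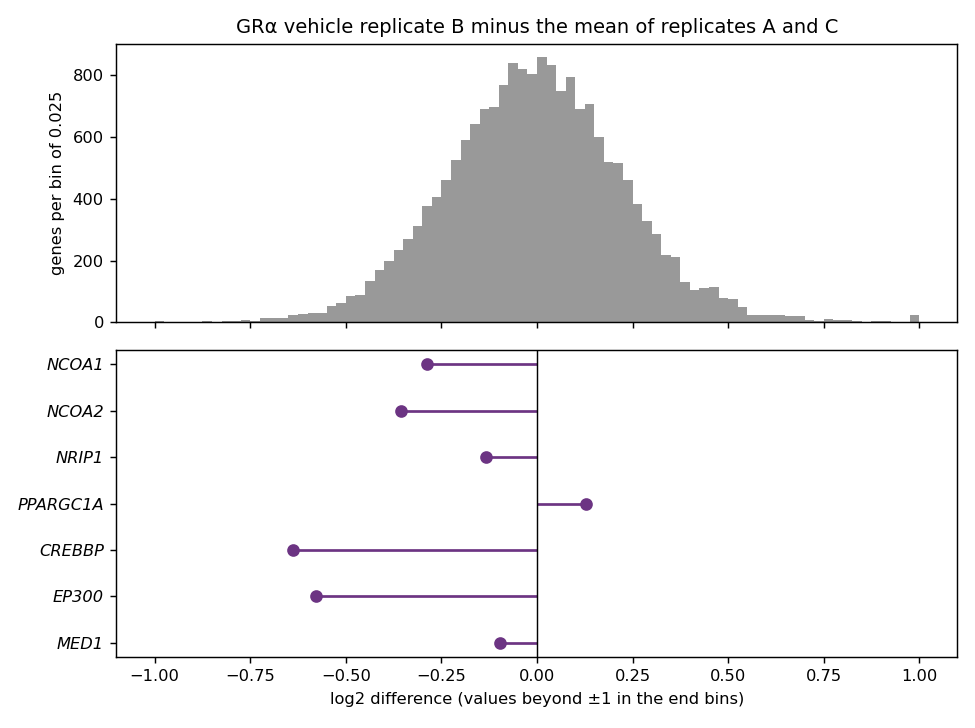
Difference in log2 signal between GRα vehicle replicate B and the mean of replicates A and C, as a histogram over 18417 genes (top) and for the 7 coregulators (bottom). CREBBP at -0.64 and EP300 at -0.58 lie in the far left tail, whose 1st percentile is -0.556, while PPARGC1A is at 0.13.

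MED1 was the steadiest of the 7 genes, with 0.234 between its lowest and highest array. It averaged 8.97 ± 0.07 in GRα dexamethasone cells, 8.92 in GRα RU486 cells (n = 2), 9.04 ± 0.06 in GRα vehicle cells, 8.93 ± 0.07 in control dexamethasone cells, 8.96 ± 0.05 in control RU486 cells and 8.94 ± 0.03 in control vehicle cells (SD, n = 3 where not stated). Arrays of the lines overlapped under dexamethasone and RU486, and in vehicle the lowest GRα array lay just above the highest control array. The difference between GRα and control cells was 0.10 in vehicle, with a 95% interval from -0.03 to 0.23 (limma adjusted p = 0.232), and the treatments moved MED1 by at most 0.12 in either direction, with no call.

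PPARGC1A was the 1 member called between treatments in both lines. In GRα cells its log2 values were 5.93, 5.97 and 5.90 under dexamethasone, 6.19 and 6.35 under RU486 and 6.17, 6.27 and 6.11 in vehicle. Control cells had 6.35, 6.26 and 6.33 under dexamethasone, 6.77, 6.74 and 6.67 under RU486 and 6.65, 6.53 and 6.61 in vehicle. In each line every dexamethasone array was below every array of the other 2 treatments. The group means, from the highest, were 6.72 ± 0.05 in control RU486, 6.60 ± 0.07 in control vehicle, 6.31 ± 0.05 in control dexamethasone, 6.27 ± 0.11 in GRα RU486 (n = 2), 6.18 ± 0.08 in GRα vehicle and 5.93 ± 0.03 in GRα dexamethasone (SD, n = 3 otherwise). Control cells with dexamethasone and GRα cells with RU486 or vehicle overlapped, so the middle 3 groups of this order are not separated by their arrays. All of these signals lie between the first quartile, 5.56, and the median, 6.85, of the gene means on the array, where background takes a larger share of a signal, and no detection calls are among the values used here.

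Dexamethasone set against RU486 gave a call for PPARGC1A in both lines. In control cells the difference was -0.41 ± 0.06, a 1.33-fold lower signal under dexamethasone (SE, limma adjusted p = 0.00525), where 0.364% of all genes were called, 0.076% lower and 0.288% higher. It stayed called in all 27 other settings, with an adjusted p of at most 0.0463. In GRα cells the difference was -0.34 ± 0.07 (1.26-fold lower, limma adjusted p = 0.0327), where 0.896% of genes were called, 0.152% lower and 0.744% higher. Dexamethasone and RU486 arrays did not overlap for 3 of the 7 genes in each line, against 26.9% of all genes in GRα cells and 14.4% in control cells. That call rested on few arrays. It was lost without control vehicle replicate C (adjusted p = 0.0514), GRα dexamethasone replicate A (0.0969), B (0.0719) or C (0.117), or GRα RU486 replicate B (0.0582) or C (0.467), the last 2 leaving a single RU486 array whose spread is taken from the other groups. The value without GRα RU486 replicate C was -0.25, and without replicate B -0.42. It was also lost when the variance prior followed the signal (adjusted p = 0.0759), when only those groups were fitted (0.254) and with a replicate block (0.0561).

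Against vehicle, PPARGC1A differed by -0.25 ± 0.06 under dexamethasone in GRα cells (95% interval -0.38 to -0.11, limma adjusted p = 0.0632) and by -0.29 ± 0.06 in control cells (-0.42 to -0.15, limma adjusted p = 0.101). Neither was called, although the dexamethasone and vehicle arrays overlapped in neither line. Such separation was seen for 2 of the 7 genes in GRα cells and 4 in control cells, against 15.8% and 12.7% of all genes. Without GRα vehicle replicate B the control difference was called (adjusted p = 0.04), with its size unchanged at -0.29, and without GRα vehicle replicate C the GRα difference was (-0.28, adjusted p = 0.0401). The size of the dexamethasone effect differed between GRα and control cells by 0.04 ± 0.09, with an interval from -0.15 to 0.23 (limma adjusted p = 0.938), where 0.0652% of all genes were called. An unequal response of PPARGC1A in the lines was therefore not detectable with these arrays, and the interval allows a gap of up to 0.23.

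NRIP1 was higher, not lower, under dexamethasone. Its log2 values in GRα cells were 9.15, 9.26 and 9.18 under dexamethasone, 8.98 and 9.14 under RU486 and 8.89, 8.81 and 8.99 in vehicle. In control cells they were 9.64, 9.48 and 9.44 under dexamethasone, 9.40, 9.46 and 9.40 under RU486 and 9.37, 9.33 and 9.39 in vehicle. Dexamethasone arrays were above vehicle arrays in both lines, and the lines did not overlap, with 8.81 to 9.26 on GRα arrays and 9.33 to 9.64 on control arrays. The order of the means was the same within each line, dexamethasone highest (9.20 ± 0.05 in GRα, 9.52 ± 0.10 in control), RU486 between (9.06 ± 0.11, n = 2, and 9.42 ± 0.03) and vehicle lowest (8.90 ± 0.09 and 9.37 ± 0.03; SD, n = 3 otherwise). RU486 arrays overlapped vehicle arrays in GRα cells and dexamethasone arrays in control cells.

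The difference in NRIP1 between GRα and control cells was -0.32 ± 0.07 under dexamethasone, -0.36 ± 0.08 under RU486 and -0.47 ± 0.07 in vehicle (SE, limma adjusted p = 0.00137, 0.00148 and 3.59e-05). Those of PPARGC1A were -0.38 ± 0.06, -0.46 ± 0.07 and -0.42 ± 0.06 (adjusted p = 0.000166, 9.21e-05 and 6.03e-05). The lowest of the 6 group means was therefore that of GRα vehicle cells for NRIP1 and that of GRα dexamethasone cells for PPARGC1A.

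In GRα cells NRIP1 was 1.23-fold higher under dexamethasone than under vehicle (0.30 ± 0.07 SE, limma adjusted p = 0.0293). It was the only 1 of the 7 genes called in this comparison, where 2.02% of all genes were called, 1.36% higher and 0.662% lower. The call was lost without GRα vehicle replicate A (0.30, adjusted p = 0.0736) or B (0.26, adjusted p = 0.0995), or without GRα dexamethasone replicate A (0.32, adjusted p = 0.0571), B (0.27, adjusted p = 0.136) or C (0.31, adjusted p = 0.072), and held without GRα vehicle replicate C (0.35, adjusted p = 0.0174). It was also lost with array weights (0.26, adjusted p = 0.0741) and when only the 2 groups were fitted (adjusted p = 0.281). In control cells the difference was 0.15 ± 0.07 (limma adjusted p = 0.995). There 0 of 7 genes were called, against 0.261% of all genes (0.212% higher, 0.0489% lower). At an unadjusted p under 0.05 were 2 of the 7, PPARGC1A and NRIP1, and 904 of 18417 genes. The dexamethasone effect on NRIP1 differed between the lines by 0.15 ± 0.10 (interval -0.06 to 0.35, limma adjusted p = 0.756), so a stronger response in GRα cells was not established by the test of the difference. Between dexamethasone and RU486, NRIP1 differed by 0.14 ± 0.08 in GRα cells and 0.10 ± 0.07 in control cells (limma adjusted p = 0.668 and 0.945).

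RU486 by itself gave no call for any of the 7 genes in either line, and limma called 0.0% of all genes there (0 of 18417, with 1572 in GRα cells and 621 in control cells at an unadjusted p under 0.05). RU486 and vehicle arrays did not overlap for 1 of the 7 genes in GRα cells and 2 in control cells, where that held for 20.4% and 12.2% of all genes. PPARGC1A differed from vehicle by 0.09 ± 0.07 in GRα cells (interval -0.06 to 0.24) and 0.13 ± 0.06 in control cells (-0.01 to 0.26), on the opposite side of vehicle from dexamethasone. NRIP1 differed by 0.16 ± 0.08 and 0.06 ± 0.07, on the same side as dexamethasone. Among the 7, the widest RU486 value was that of EP300 in GRα cells, 0.24 ± 0.12 (limma adjusted p = 0.598), which became 0.05 ± 0.06 without GRα vehicle replicate B. The dexamethasone value of EP300 in GRα cells, 0.22 ± 0.11 (adjusted p = 0.355), became 0.02 ± 0.05 in the same way.

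NCOA1 also sat lower under dexamethasone on the control arrays, without a call. The control dexamethasone arrays, 8.49 to 8.55, lay below the control RU486 arrays, 8.62 to 8.76, and the difference was -0.17 ± 0.07 (unadjusted p = 0.0321, limma adjusted p = 0.745). For NCOA2 the dexamethasone values against vehicle were 0.08 ± 0.08 in GRα cells and -0.04 ± 0.08 in control cells (limma adjusted p = 0.682 and 1). CREBBP in control cells differed by -0.02 ± 0.12 between dexamethasone and vehicle, with all 9 control arrays inside 8.71 to 8.81.

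**Figure D4:**
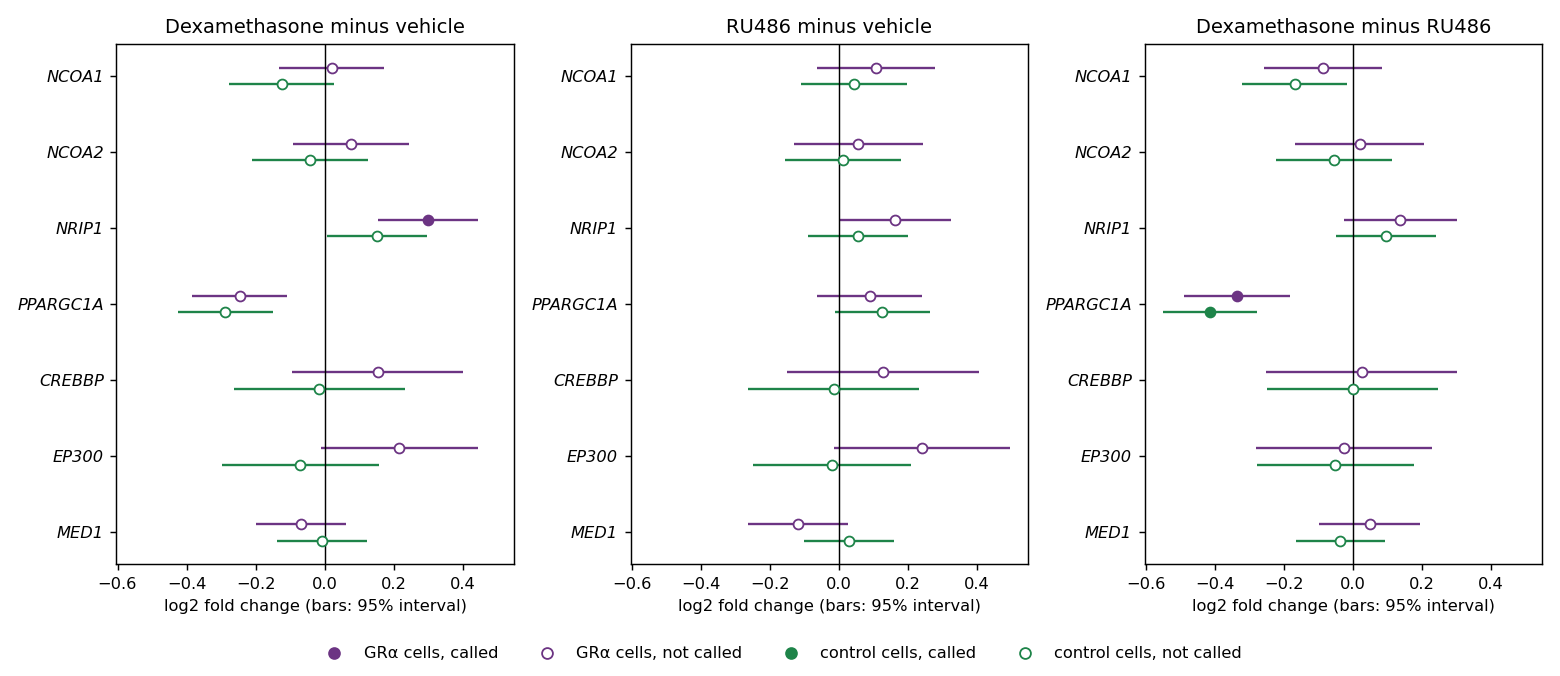
Log2 fold changes of each coregulator for dexamethasone against vehicle, RU486 against vehicle and dexamethasone against RU486 in GRα cells (upper point of each pair) and control cells (lower point), with 95% intervals; filled points were called. The called points are NRIP1 at 0.30 in the first panel and PPARGC1A at -0.34 and -0.41 in the third.

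A fit added after the data had been seen averaged each treatment effect over both lines. Dexamethasone against vehicle was then called for PPARGC1A (-0.27 ± 0.05, interval -0.36 to -0.17, limma adjusted p = 0.00272) and for NRIP1 (0.23 ± 0.05, interval 0.12 to 0.33, limma adjusted p = 0.0184), 2 of the 7 genes where 1.90% of all genes were called. Without GRα vehicle replicate B the same 2 genes were called, at -0.25 ± 0.04 and 0.20 ± 0.05 (adjusted p = 0.00436 and 0.0317), where the share of all genes was 2.17%. Dexamethasone against RU486 was called for PPARGC1A (-0.37 ± 0.05, limma adjusted p = 0.000211, with 1.66% of all genes called, and 2.42% without GRα vehicle replicate B) and not for NRIP1 (0.12 ± 0.05, adjusted p = 0.426). RU486 against vehicle gave 0.11 ± 0.05 for each of the 2 genes (adjusted p = 0.566 and 0.574, with 0.0% of genes called). The line difference in the dexamethasone and RU486 contrast was 0.08 ± 0.10 for PPARGC1A (interval -0.13 to 0.28) and called 0 of the 7 genes, against 0.0271% of all genes and 0.038% without that array.

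For scale, 3 glucocorticoid target genes were read on the same arrays. ZBTB16, a strongly glucocorticoid-induced transcription factor gene, was higher under dexamethasone than under vehicle by 2.49 ± 0.09 in GRα cells and by 1.42 ± 0.09 in control cells (SE, limma adjusted p = 1.17e-11 and 5.88e-08). PER1, a circadian clock gene with glucocorticoid response elements, was higher by 1.34 ± 0.07 and 0.95 ± 0.07 (limma adjusted p = 2.81e-09 and 9.11e-07). TSC22D3, which encodes the anti-inflammatory protein GILZ, was higher by 0.66 ± 0.11 in GRα cells (limma adjusted p = 0.00292) and differed by 0.25 ± 0.11 in control cells without a call (limma adjusted p = 0.995). Against vehicle, PPARGC1A differed by -0.25 and -0.29 and NRIP1 by 0.30 and 0.15 in the same lines.

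By the likeness rule, the genes whose pattern over the 17 arrays was closest to PPARGC1A after removal of the line means were PNPT1 (r = 0.91), a mitochondrial RNA-processing enzyme, NADK2 (0.90), the mitochondrial NAD kinase, and IFIT1 (0.90), an interferon-induced gene. PNPT1 averaged 9.35 ± 0.05 in GRα dexamethasone cells, 9.54 ± 0.07 in GRα RU486 cells (n = 2) and 9.60 ± 0.07 in GRα vehicle cells, and 9.52 ± 0.05, 9.76 ± 0.02 and 9.65 ± 0.06 in the same order in control cells (SD, n = 3 otherwise). For NRIP1 they were MACIR (0.94), ING2 (0.93), a reader of methylated histone H3, and ATR (0.92), a DNA damage kinase. ING2 averaged 8.06 ± 0.08, 7.56 ± 0.30 (n = 2) and 7.28 ± 0.07 in GRα dexamethasone, RU486 and vehicle cells and 8.05 ± 0.06, 7.89 ± 0.07 and 7.72 ± 0.13 in control cells. These r values are descriptions from a search over all genes. They include GRα vehicle replicate B and were not computed without it.

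The wider coregulator machinery was read from 7 lists with 89 of 95 genes measured. None of the 89 was called between treatments within a line or in the line-by-treatment differences, and the lowest adjusted p among those comparisons was 0.0578. Between the lines, 11 were higher and 19 lower under dexamethasone (33.7% called), 10 higher and 15 lower under RU486 (28.1%) and 10 higher and 27 lower in vehicle (41.6%), against 33.3%, 29.2% and 33.4% of all genes. Their median differences were -0.04, -0.07 and -0.07. Without GRα vehicle replicate B the counts were 16 higher and 22 lower under dexamethasone, 14 and 20 under RU486 and 16 and 22 in vehicle. The calls over all genes in that fit were 37.3%, 33.4% and 34.2%, so they rose as well. In the same fit 1 gene, TFB2M, was called higher under dexamethasone than under RU486 in GRα cells, where 1.41% of all genes were called.

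Among partners of NRIP1, the ligand-dependent corepressor genes LCOR and LCORL were the 2 called of 4, both lower in GRα vehicle cells. In vehicle 18.3% of all genes were called lower and 15.0% higher. LCOR averaged 8.04 ± 0.03 in GRα vehicle cells and 8.46 ± 0.02 in control vehicle cells (SD, n = 3 each), a difference of -0.42 ± 0.06 (SE, limma adjusted p = 5.03e-05). LCORL differed by -0.33 ± 0.06 and was lower under the other 2 treatments as well, as was LCOR. Their means hardly moved with treatment, at 8.09 under dexamethasone, 8.08 under RU486 and 8.04 in vehicle for LCOR in GRα cells. The CtBP genes CTBP1 and CTBP2, the other 2 genes of this list, gave no call.

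In the complexes around NCOR1 and Sin3, 2 of 11 genes were higher and 4 lower in GRα vehicle cells. Without GRα vehicle replicate B these were 2 and 3. The vehicle counts in this paragraph stand against 15.0% of all genes called higher and 18.3% lower. Without GRα vehicle replicate B, 34.2% of all genes were called in either direction. SIN3A, the scaffold of the Sin3 deacetylase complex, was higher in GRα vehicle cells, at 9.05 ± 0.31 against 8.38 ± 0.02 in control vehicle cells (0.67 ± 0.10 SE, limma adjusted p = 5.93e-05, and 0.85 ± 0.06 without GRα vehicle replicate B), and CORO2A was higher by 0.55. HDAC1, a deacetylase of the same complex, was lower, at 10.08 ± 0.09 against 10.56 ± 0.03 (-0.48 ± 0.07). Of the relatives of the NCOA and PGC-1 coactivators, 2 of 6 were called in vehicle, both lower: NCOA7 (-0.34) and NCOA4 (-0.27), a ferritin receptor in autophagy that also binds nuclear receptors. PPARGC1B, the gene for PGC-1β, was lower in GRα than in control cells under dexamethasone (-0.25 ± 0.08, limma adjusted p = 0.0262), with arrays that overlapped, and differed by -0.07 under RU486 and -0.13 in vehicle without a call. Among histone-modifying coregulators 5 of 12 were lower and 0 higher in vehicle, against 3 lower and 2 higher without GRα vehicle replicate B. The lower genes were led by the arginine methyltransferase gene PRMT1 (-0.40), the demethylase gene KDM6A (-0.39, and -0.24 without GRα vehicle replicate B) and the acetyltransferase gene KAT2A (-0.25).

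Mediator, the complex that MED1 belongs to, had 3 of 28 measured genes higher and 8 lower in GRα vehicle cells. Without GRα vehicle replicate B these were 4 and 7. With all arrays, differences were as wide as MED15 (0.95, 10.04 ± 0.19 in GRα vehicle and 9.09 ± 0.03 in control vehicle cells), MED4 (-0.85) and MED13L (0.55). Over all genes 15.0% were called higher and 18.3% lower in vehicle, and 34.2% in either direction without GRα vehicle replicate B. MED27 was higher in GRα than in control cells under dexamethasone (0.87 ± 0.19) and RU486 (0.95 ± 0.21). In vehicle it differed in the same direction without a call (0.49 ± 0.19, limma adjusted p = 0.0538), with GRα arrays from 8.14 to 9.34, and was called without GRα vehicle replicate B (0.82 ± 0.11, limma adjusted p = 2.57e-05). In the SWI/SNF chromatin remodelling complex 2 of 12 were higher and 1 lower in GRα vehicle cells, against 4 higher and 0 lower without GRα vehicle replicate B. The lower gene was SMARCD3 (-0.22, limma adjusted p = 0.0392, and 0.0725 without that array). SMARCB1, a core subunit, averaged 10.10 ± 0.16 in GRα vehicle cells and 8.97 ± 0.04 in control vehicle cells (SD, n = 3 each), a 2.20-fold difference (limma adjusted p = 2.65e-09). The other called genes named from the 7 lists were also called in the same direction without that array, in each comparison given.

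Genes linked to PGC-1α in mitochondrial biogenesis and metabolism did not move in 1 direction between the lines. Of 16 measured, 3 were higher and 5 lower in GRα vehicle cells, with a median difference of 0.01. Without GRα vehicle replicate B these were 4, 5 and -0.05. The shares of all genes called in vehicle were 15.0% higher and 18.3% lower, and 34.2% in either direction without that array. TFB2M, a mitochondrial transcription factor, was lower, at 8.06 ± 0.14 in GRα vehicle and 8.87 ± 0.04 in control vehicle cells (-0.81 ± 0.07 SE, limma adjusted p = 1.36e-07), and TFB1M was lower by 0.49. IDH3A, a tricarboxylic acid cycle enzyme, was higher, at 10.83 ± 0.07 against 10.08 ± 0.06 (0.75 ± 0.06 SE, limma adjusted p = 5.04e-08). NRF1, a regulator of nuclear genes for mitochondrial proteins, was higher in GRα cells by 0.46 under dexamethasone, 0.46 under RU486 and 0.41 in vehicle. GABPA, a subunit of another such regulator, was lower in all 3 treatments, with differences of -0.45, -0.49 and -0.47 in the same order. Dexamethasone against RU486, the contrast in which PPARGC1A was called in both lines, gave 0 calls among these 16 with all arrays. Without GRα vehicle replicate B it gave 1, TFB2M in GRα cells, higher under dexamethasone (0.32 ± 0.07, limma adjusted p = 0.0287, against 0.0949 with all arrays) and named after its value was seen. In that fit 1.41% of all genes were called in GRα cells. The medians of the 16 were -0.05 in GRα cells and -0.03 in control cells where those of all genes were 0.00 and -0.01.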

How the data were processed

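RNA was measured on whole-transcript human arrays, from 100 ng of total RNA per the labels. The authors deposited log2 values for 29153 probe sets, and the submitters' processing notes name RMA, which normalizes by quantiles, and limma, without versions. The genome build is not given in the sources used here. Normalizing by quantiles would hide a shift of most RNAs in 1 direction. Values exist for 17 of the 18 arrays described.

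Probe sets with 1 gene symbol (19460) were kept, and a gene with several was read from the one with the highest mean. One limma fit (version 3.58.1, R 4.3.3), with a mean per group, gave 11 contrasts. Tests were two-sided, and a call needed a p under 0.05 after Benjamini-Hochberg adjustment over 18417 genes. The fit was also run on simulated data with noise drawn independently for each value. No array stood apart there, so that run does not cover an array such as GRα vehicle replicate B. No recovery rate for changes of the members' size is given here. The labels call the replicates biological without naming separate cultures, and the p-values reflect the spread between these samples only. The number of arrays limits the precision. Arrays of 1 line correlated at 0.987 to 0.997, arrays of different lines at 0.971 to 0.977, and no 2 were identical.

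The members are all named, with up to 3 called genes per list and comparison, chosen by absolute change. Members and lists were chosen with earlier results of these data known, and the check genes ZBTB16, PER1 and TSC22D3 likewise. Alternatives were other normalizations, filters, variance priors, array weights, gene units, smaller fits, a replicate block and leaving out each array.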

Additional observations from a re-analysis of the deposited data

How the results depend on the processing

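Of 77 results (7 genes in 11 contrasts), 8 changed their call in at least 1 of 27 alternatives (10 of processing, 17 leaving out 1 array), and 0 of the called results changed sign. Under dexamethasone against vehicle in GRα cells, 1 of the 7 genes was called as reported, 2 with genes of a mean below 5.56 left out, 0 with array weights and 0 with only the groups compared. Leaving out 1 array gave 0 to 2. In control cells the count was 0 as reported and 1 with array weights, and 0 to 1 when 1 array was left out. Under dexamethasone against RU486 in GRα cells it was 1 as reported, and 0 with a trend in the variance prior, 0 with only the groups compared and 0 with the replicate block. Leaving out 1 array gave 0 to 1. The cause was not tested.

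Whether the replicate letters pair the samples was not settled. Over 40 pairs of same-lettered arrays, deviations from the group means correlated at -0.254 to 0.324, and 5 were over 0.1. All 5 were within a line, at 0.324, 0.193, 0.147 and 0.125 in control cells and 0.105 in GRα cells. Pairs of arrays with different letters were not compared. Apart from the PPARGC1A call above, the replicate block changed no call among the 7 genes. Probe signals of 2 or 3 arrays per group limit what can be seen. The 95% half-width of a difference was 0.14 for PPARGC1A and 0.25 for CREBBP in vehicle. The CREBBP width includes the spread from GRα vehicle replicate B, and its SE was smaller without that array.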
